A study of Sus scrofa with 20 samples.

Results

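The enzymes that turn cholesterol into bile acids were compared between the liver and the backfat of the Nanchukmacdon pig. The set was given as a list of 9 gene symbols, CYP7A1, CYP7B1, CYP27A1, AKR1D1, HSD3B7, AMACR, BAAT, SCP2 and ACOX2, and each symbol was matched to a pig Ensembl gene identifier in a table of 31907 genes. An identifier was found for 7 of the 9, and AMACR and SCP2, which had none in the tables used for matching, were not analysed here. Of these 7, BAAT had too few reads to be tested, so 6 of the 16275 genes tested were bile acid synthesis enzymes. The animals were 5 wild-type boars of this Korean breed, labelled as normal and 22 months old, and the labels name no treatment. RNA-seq of bulk liver and of backfat, the subcutaneous fat along the back, gave 5 libraries a tissue, named here by the tissue and the boar's number (65, 67, 69, 71 and 72). Bisulfite libraries of the same tissues were not used here, since their tables of calls by position in the read carry no gene positions.

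Bile acids are made from cholesterol in hepatocytes. In the neutral or classic route, CYP7A1 in the endoplasmic reticulum hydroxylates the steroid nucleus first and is the rate-limiting enzyme. In the acidic or alternative route, CYP27A1 in mitochondria hydroxylates the side chain first and CYP7B1 then hydroxylates the nucleus, and this route is also found outside the liver. HSD3B7 and AKR1D1 rearrange and reduce the sterol rings, and AMACR, ACOX2 and SCP2 act in the shortening of the side chain in peroxisomes. BAAT joins the finished acid to glycine or taurine.

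By the positions of RefSeq in the build Sscrofa11.1, the build of the count table, CYP7A1 spans chr4:74343101-74372628 on the plus strand with 11 exon blocks, and CYP27A1 spans chr15:120809886-120852196 on the plus strand with 9. AKR1D1 spans chr18:11416065-11532846, HSD3B7 spans chr3:17459627-17463381 and ACOX2 spans chr13:40220952-40255967, all on the minus strand, with 10, 8 and 18 exon blocks. CYP7B1 and BAAT were not found under their symbols in that annotation. The exons of the 6 enzymes tested summed to between 2150 and 3482 bases in the Ensembl annotation of the count table, and reads over those exons were counted.

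Sequences are shown for 3 of these genes, the rate-limiting enzyme, the enzyme with the largest difference between the tissues and the enzyme with the smallest. For CYP7A1 the 138 bases chr4:74363172-74363309 (plus strand) lie between neighbouring annotated exons. The later exon is the last that ends before the first coding block shared by all 5 coding models of RefSeq. Whether the earlier exon is noncoding was not checked. The 138 bases are inside the annotated span of CYP7A1, which starts at 74343101, and not before it. For AKR1D1 the 250 bases chr18:11532847-11533096 and for HSD3B7 the 250 bases chr3:17463382-17463631, both read on the minus strand, end just before the annotated start of the gene. All are printed 5′ to 3′ along the gene, and capitals mark the matches to 4 short motifs searched on both strands.
CYP7A1: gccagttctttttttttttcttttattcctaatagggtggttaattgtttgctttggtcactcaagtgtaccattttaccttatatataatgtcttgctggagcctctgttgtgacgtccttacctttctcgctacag
AKR1D1: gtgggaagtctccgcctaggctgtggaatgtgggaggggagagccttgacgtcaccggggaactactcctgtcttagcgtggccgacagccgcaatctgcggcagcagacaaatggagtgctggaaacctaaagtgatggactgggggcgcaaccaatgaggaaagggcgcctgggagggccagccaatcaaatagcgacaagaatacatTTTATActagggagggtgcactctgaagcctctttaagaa
HSD3B7: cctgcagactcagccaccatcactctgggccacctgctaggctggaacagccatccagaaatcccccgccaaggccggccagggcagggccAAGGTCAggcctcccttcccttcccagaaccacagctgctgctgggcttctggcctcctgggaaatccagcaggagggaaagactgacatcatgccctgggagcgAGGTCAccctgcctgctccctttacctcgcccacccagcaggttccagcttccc
The motifs were TATAAA (a core promoter element), AGGTCA (a nuclear receptor motif), AAGGTCA (core of the NR5A2 site, which holds the nuclear receptor motif) and AAAGTCC (HNF4 core). The CYP7A1 window held none of them, which says only that these letters are not in it. AGGTCA occurred in 6.83% of the 138-base windows before all annotated protein-coding genes. Those windows end at an annotated gene start, unlike the CYP7A1 window. The AKR1D1 window held 1 TATAAA, read on the opposite strand, which occurred in 9.76% of all 250-base windows. The HSD3B7 window held 2 AGGTCA, present in 12.2% of such windows, and 1 of these was part of an AAGGTCA, present in 3.19%. A match describes these letters only.

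All 6 enzymes tested had their higher mean in liver, and 5 of them, CYP7A1, CYP7B1, CYP27A1, AKR1D1 and ACOX2, were called higher in liver. A call required, in the edgeR quasi-likelihood test across all genes, an adjusted p no larger than 0.05 and a log2 fold change of 2 or more in size. By that rule 22.3% of all genes tested were called, 11.2% as higher in liver and 11.1% as higher in backfat. The remaining enzyme, HSD3B7, passed the adjusted p but not the fold, and at the adjusted p alone 55.0% of all genes passed. The median log2 fold change, backfat over liver, was -3.78 over the 6 enzymes and 0.00 over all genes. In bulk tissue, fewer cells of a type and less RNA per cell cannot be told apart.

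**Figure D1:**
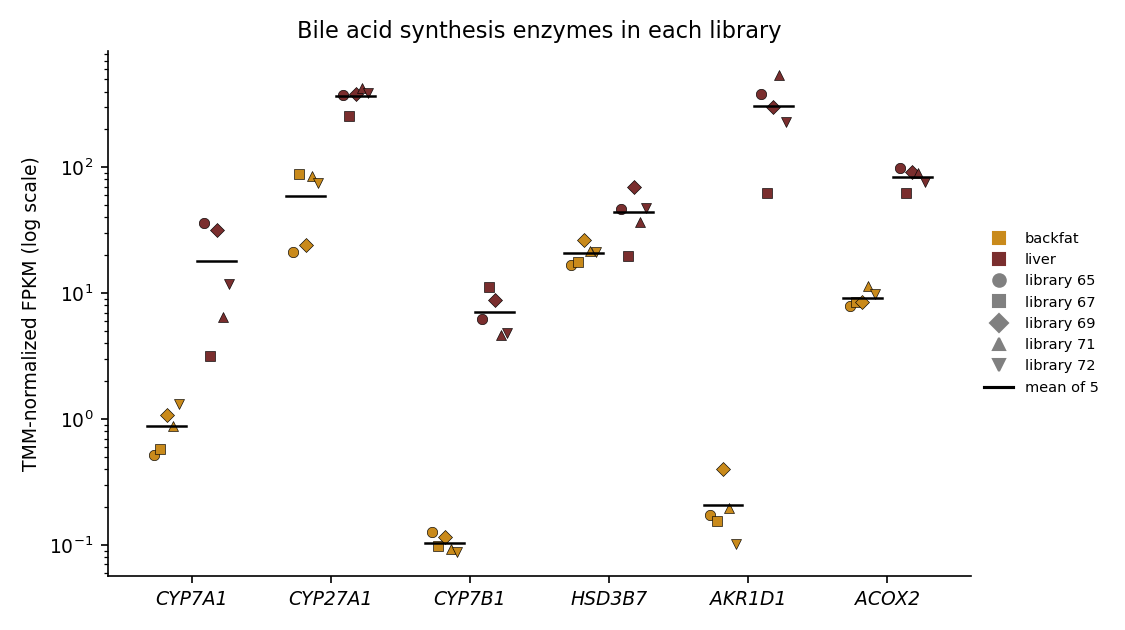
TMM-normalized FPKM (log scale) of the 6 enzymes tested in each of the 10 libraries, with the shape giving the number of the boar and the black line the mean of the 5 libraries of a tissue. The tissues separate for all but HSD3B7, and AKR1D1 has the widest gap, from a mean of 0.206 in backfat to 305 in liver.

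The libraries held between 43820042 and 61772737 counted reads, and depth did not separate the tissues, with backfat from 45157114 and liver up to 53768601. The TMM factors, which correct the scale of a library for its composition, were 1.18 to 1.44 in backfat and 0.649 to 0.916 in liver. With library size alone as the scale, the median over all genes moved to 0.71 on the log2 scale. Liver 67 stood apart, with 44.5% of its reads on 13 mitochondrial genes against 6.38% to 20.2% in the other livers. All 10 hepatocyte markers were called higher in liver and all 6 adipocyte markers higher in backfat, and none of these 16 markers was at 0 throughout a tissue. CPM are counts scaled by depth and TMM factor, except that the marker sums here were scaled by depth alone. The hepatocyte marker sum was 23660 CPM in liver 67, against 75547 to 93923 CPM in the other livers. In backfat it was 718 CPM in backfat 69 and 200.3 to 294 CPM in the other libraries. Most of the sum in backfat was APOA1, with a TMM-scaled mean of 246 CPM, against 7.48 CPM for ALB, the next highest marker. Markers of bile duct cells summed to 32.5 to 81.7 CPM in liver and 5.73 to 29.2 CPM in backfat, with 4 of 5 measured called higher in liver, and macrophage markers to 1021 to 1481 CPM and 415 to 819 CPM, with 2 of 8 called higher in liver. The 3 skeletal muscle markers measured were not called, and summed to 7.68 to 558 CPM in backfat and 0.893 to 101 CPM in liver, highest there in liver 67. The part of these marker differences in the enzyme levels was not tested.

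CYP7A1 (ENSSSCG00000006238), the rate-limiting enzyme of the classic route, was at 1.82, 2.01, 3.72, 3.08 and 4.56 CPM in backfat 65, 67, 69, 71 and 72. In the livers of the same numbers it was at 127, 11.1, 110.3, 22.5 and 40.9 CPM. Every liver library lay above every backfat library, but liver 65 and liver 69 were far above the other livers, and liver 67 was the lowest. The means were 3.04 ± 1.15 CPM in backfat and 62.3 ± 52.8 CPM in liver (SD, n = 5), a 20.5-fold difference. The log2 fold change was -4.36 (SE 0.64, adjusted p = 8.98e-05, edgeR), and it was -4.66 without liver 67, -3.92 without liver 65 and -4.06 without liver 69.

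The span of CYP7A1 overlaps that of SDCBP, a gene for a scaffold protein, on the opposite strand by 14620 bases, of which 369 are exonic in both by RefSeq. CYP7A1 has 5409 exon bases by RefSeq and 3482 in the Ensembl annotation that was counted, and the exonic overlap in the latter was not measured. The authors' count did not use strand, so reads of the pair over any shared bases could not be told apart. SDCBP was at 25.3 to 38.6 CPM in backfat and 3.29 to 33.6 CPM in liver (log2 fold change 0.72, SE 0.44, adjusted p = 0.189). The count of CYP7A1 was 4.93% to 16.3% of that of SDCBP in the backfat libraries and 58.4% to 685% in the livers. A part of the CYP7A1 count in backfat that came from SDCBP was not tested.

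CYP27A1 (ENSSSCG00000016199), the mitochondrial enzyme that opens the acidic route, was abundant in both tissues. Its level was 57.8, 240.0, 66.0, 232 and 207 CPM in backfat 65, 67, 69, 71 and 72, and 1026, 699.5, 1051, 1169.8 and 1067 CPM in the livers of those numbers. Backfat 65 and backfat 69 lay well below the other 3 backfat libraries, which were close to each other, and the tissues did not overlap. The means were 160.5 ± 90.9 CPM in backfat and 1003 ± 178 CPM in liver (SD, n = 5), or 6.25-fold, with a log2 fold change of -2.64 (SE 0.43, adjusted p = 0.000217). Scaled by library size alone the log2 fold change was -1.95, below the fold threshold, and in a test against that threshold itself (edgeR glmTreat) the adjusted p was 0.127.

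CYP7B1 (ENSSSCG00000022092), the enzyme that follows CYP27A1 in the acidic route, was near the bottom of the range in backfat. It had 26, 15, 16, 12 and 12 reads there, or 0.293, 0.229, 0.269, 0.216 and 0.206 CPM. In liver 65, 67, 69, 71 and 72 it was at 14.4, 26.2, 20.6, 10.8 and 11.2 CPM, so that liver 67, the lowest for all other tested enzymes, was the highest for CYP7B1. The tissues did not overlap, and the means of 0.243 ± 0.0371 and 16.6 ± 6.62 CPM (SD, n = 5) were 67.6-fold apart. The log2 fold change was -6.08 (SE 0.33, adjusted p = 2.79e-08), and -5.89 without liver 67.

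CYP7B1 and CYP27A1 were compared within each library, where no scaling between libraries enters, as the ratio of their counts per base of exon. The flow through the acidic route was not measured. Per length, CYP7B1 was at 0.606%, 0.115%, 0.493%, 0.114% and 0.122% of CYP27A1 in backfat 65, 67, 69, 71 and 72, and at 1.65%, 4.39%, 2.30%, 1.08% and 1.23% in the livers. CYP27A1 therefore exceeded CYP7B1 in all 10 libraries, and by more in every backfat library than in any liver. The mean log2 ratio of CYP7B1 to CYP27A1 was -8.85 ± 1.22 in backfat and -5.75 ± 0.81 in liver (SD, n = 5), a difference of -3.10 or 8.58-fold. By a two-sided exact permutation test p was 0.00794, the smallest that 5 against 5 allow, and 0.00794 after adjustment over the 2 ratios run. With libraries paired by the number of the boar, the p of an exact sign-flip test was 0.0625, and 5 pairs allow none smaller.

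HSD3B7 (ENSSSCG00000032369), the 3-beta-hydroxysteroid dehydrogenase that acts on the 7-alpha-hydroxylated sterols of both routes, had the smallest difference. Its levels were 36.2, 37.9, 56.5, 46.6 and 46.0 CPM in backfat 65, 67, 69, 71 and 72, and 101.0, 42.7, 149.6, 79.7 and 101.7 CPM in the livers. The tissues overlapped, since liver 67 fell within the range of backfat, while the other 4 livers lay above it. The means of 44.7 ± 8.08 and 95.0 ± 38.8 CPM (SD, n = 5) differed by 2.13-fold, with a log2 fold change of -1.09 (SE 0.28, adjusted p = 0.00505), short of the fold for a call. Without liver 67 it was -1.31 (adjusted p = 0.000126), and with library size alone it was -0.43 (adjusted p = 0.238).

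Set against CYP27A1 within a library, HSD3B7 had the opposite order of the tissues. Per length it was at 79.9%, 20.1%, 109%, 25.6% and 28.4% of CYP27A1 in the backfat libraries and at 12.5%, 7.77%, 18.1%, 8.68% and 12.1% in the livers. All backfat libraries lay above all livers, and backfat 65 and 69, the libraries with the least CYP27A1, were the highest. The mean log2 ratio was -1.26 ± 1.09 in backfat and -3.14 ± 0.48 in liver (SD, n = 5), a difference of 1.88 or 3.69-fold. The two-sided exact permutation test gave p = 0.00794 (adjusted p = 0.00794 over the 2 ratios), again its smallest value, and the sign-flip test on pairs gave p = 0.0625.

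AKR1D1 (ENSSSCG00000016519), the steroid 5-beta-reductase that gives bile acids their bent ring system, differed most. It was at 0.530, 0.473, 1.23, 0.595 and 0.309 CPM in backfat 65, 67, 69, 71 and 72, from 47, 31, 73, 33 and 18 reads. In the livers of these numbers it was at 1170.1, 192, 924, 1661 and 700.1 CPM. Every liver exceeded every backfat library by more than 2 orders of magnitude, although liver 67 was the lowest liver and backfat 69 the highest backfat. The means were 0.627 ± 0.352 and 929 ± 546 CPM (SD, n = 5), a 1480-fold difference on a log2 fold change of -10.53 (SE 0.73, adjusted p = 1.65e-07). Without backfat 69 the log2 fold change was -10.91, and without liver 67 it was -10.84.

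ACOX2 (ENSSSCG00000011477), the branched-chain acyl-CoA oxidase of the peroxisome, varied little among the libraries of each tissue. It was at 23.4, 25.2, 25.5, 33.7 and 29.2 CPM in backfat 65, 67, 69, 71 and 72, and 294, 187, 273, 269.6 and 227 CPM in the livers. The tissues did not overlap, and the means of 27.4 ± 4.10 and 250.1 ± 42.6 CPM (SD, n = 5) were 9.12-fold apart. The log2 fold change was -3.19 (SE 0.19, adjusted p = 5.41e-08).

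BAAT (ENSSSCG00000035245), the conjugating enzyme, was close to undetected in both tissues by the gene model of the count table, and whether that model covers the expressed transcript was not tested. In backfat 65, 67, 69, 71 and 72 its counts were 0, 0, 0, 1 and 0, and in the livers they were 3, 0, 1, 0 and 0. It was removed by the low-count filter, and no fold is given. Fitted with no filter, edgeR gave an adjusted p of 0.232. No library of either tissue had more than 3 of its reads.

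**Figure D2:**
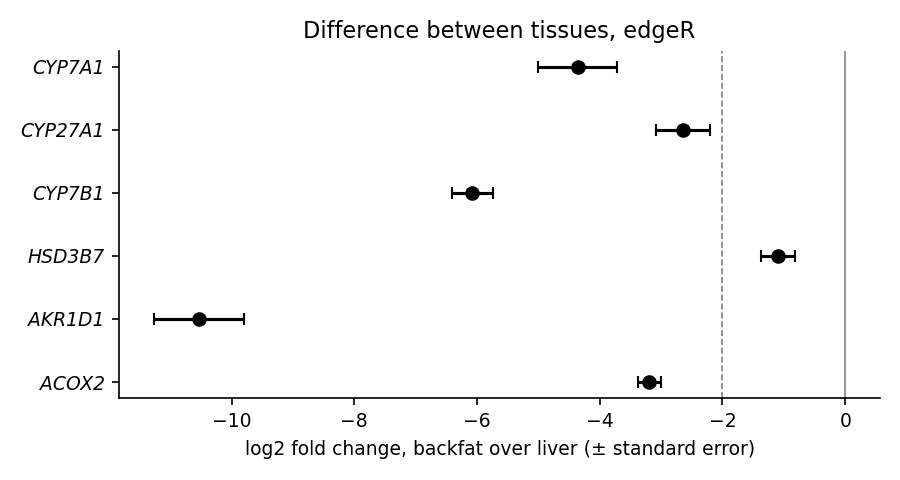
Log2 fold change, backfat over liver, of the 6 enzymes tested, with the standard error of the edgeR fit as bars; the solid line marks no difference and the dashed line the fold of a call, at -2. HSD3B7, at -1.09, is the only enzyme to the right of the dashed line, and AKR1D1, at -10.53, is farthest left.

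Per length of exon, the order of the enzymes differed between the tissues. In liver the mean FPKM (CPM per kilobase of exon) ran from CYP27A1 (366 ± 65.0) and AKR1D1 (305 ± 179) through ACOX2 (84.0 ± 14.3), HSD3B7 (44.2 ± 18.1) and CYP7A1 (17.9 ± 15.2) to CYP7B1 (7.13 ± 2.84; SD, n = 5). The ranges of neighbours in this order overlapped at every step down to CYP7B1, and CYP27A1 exceeded AKR1D1 in 3 of 5 livers. ACOX2 exceeded HSD3B7, and HSD3B7 exceeded CYP7A1, in all 5 livers. In backfat the order of mean FPKM was CYP27A1 (58.6 ± 33.2), HSD3B7 (20.8 ± 3.76), ACOX2 (9.21 ± 1.38), CYP7A1 (0.873 ± 0.332), AKR1D1 (0.206 ± 0.116) and CYP7B1 (0.104 ± 0.0159). There the ranges of HSD3B7, ACOX2, CYP7A1 and AKR1D1 were separate from one to the next, while those of CYP27A1 and HSD3B7, and of AKR1D1 and CYP7B1, overlapped. AKR1D1 was thus behind only CYP27A1 in liver and ahead of only CYP7B1 in backfat.

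Expressed as a percent of the mean liver level, the enzymes in backfat covered more than 3 orders of magnitude. HSD3B7 was at 38.2% to 59.4%, CYP27A1 at 5.76% to 23.9% and ACOX2 at 9.36% to 13.5%. CYP7A1 was at 2.91% to 7.32%, CYP7B1 at 1.24% to 1.76% and AKR1D1 at 0.0332% to 0.132%. In backfat 69, the library with the most hepatocyte marker RNA, 9 of the 10 hepatocyte markers were at 0.0860% to 0.178% of their liver mean, and in the other backfat libraries at 0% to 0.0561%. The tenth, APOA1, was at 1.15% to 3.31%. AKR1D1 in backfat 69 (0.132%) lay within the span of the 9 markers in that library, and in the other backfat libraries it lay between 0.0332% and 0.0640%. The other 5 enzymes lay above those 9 markers in each backfat library. The share of the AKR1D1 reads in backfat that came with hepatocyte RNA was not tested.

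**Figure D3:**
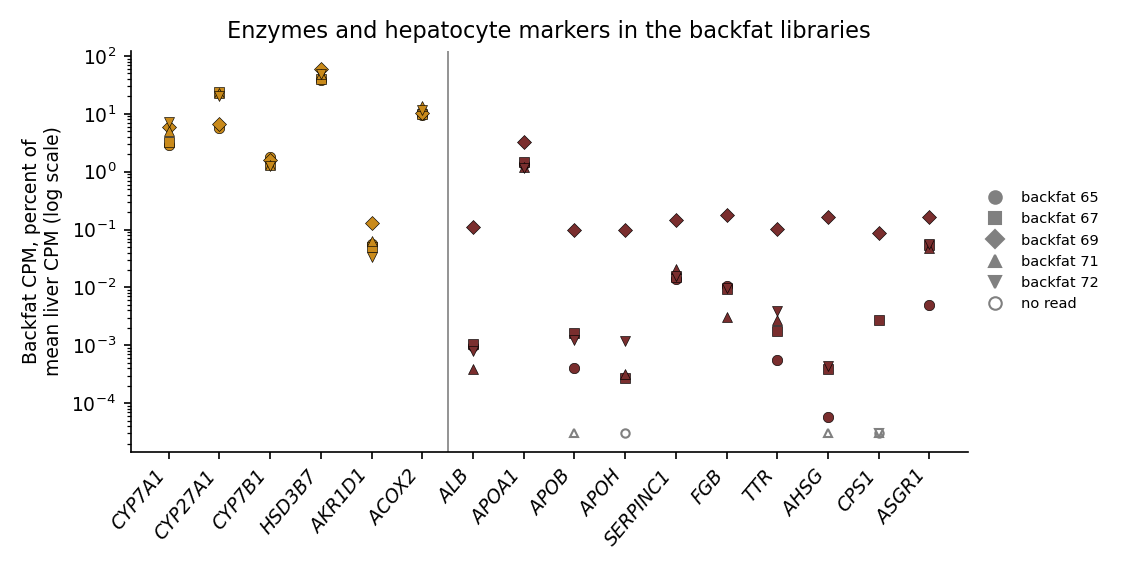
Level in each backfat library as a percent of the mean liver CPM (log scale) for the 6 enzymes (left of the line) and 10 hepatocyte markers (right of it), with open symbols at the lower edge for libraries with no read. Diamonds mark backfat 69, where 9 markers are at 0.0860% to 0.178%, and AKR1D1 is the only enzyme as low as those 9.

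Within liver the enzymes varied to very different degrees. The SD of log2 CPM over the 5 livers was 1.49 for CYP7A1, at percentile 98.2 of all genes tested, with a range of 11.5-fold, and 1.19 for AKR1D1, at percentile 95.5, with a range of 8.67-fold. HSD3B7 (SD 0.67) and CYP7B1 (0.55) were nearer the median of all genes, 0.46, and CYP27A1 (0.29) and ACOX2 (0.26) were below it. Liver 67 was the lowest library for CYP7A1, CYP27A1, AKR1D1, HSD3B7 and ACOX2 and the highest for CYP7B1. Without it the SD was 1.19 for CYP7A1, with a range of 5.64-fold, and 0.53 for AKR1D1, with a range of 2.37-fold, while the median of all genes was 0.36. Without liver 67 the SD also fell to 0.38 for HSD3B7, 0.43 for CYP7B1, 0.08 for CYP27A1 and 0.16 for ACOX2. The spread of CYP7A1 was therefore also present among the 4 other livers, where it ran from 22.5 to 127 CPM. With CYP7A1 at 127, 110.3, 22.5 and 40.9 CPM, liver 65, 69, 71 and 72 had mitochondrial shares of 6.97%, 6.38%, 20.2% and 11.9%. This was noticed after the values were seen, and the part of that share in the spread was not tested.

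In backfat the order of the spread was another. CYP27A1 was the most variable enzyme, with an SD of log2 CPM of 1.03 at percentile 97.5 of all genes and a range of 4.15-fold. AKR1D1 (0.62) and CYP7A1 (0.55) were also above the median of all genes, 0.32, and HSD3B7 (0.26), ACOX2 (0.21) and CYP7B1 (0.15) were below it. CYP27A1 thus had an even level in liver and an uneven one in backfat, and whether its spread differed between the tissues was not tested.

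**Figure D4:**
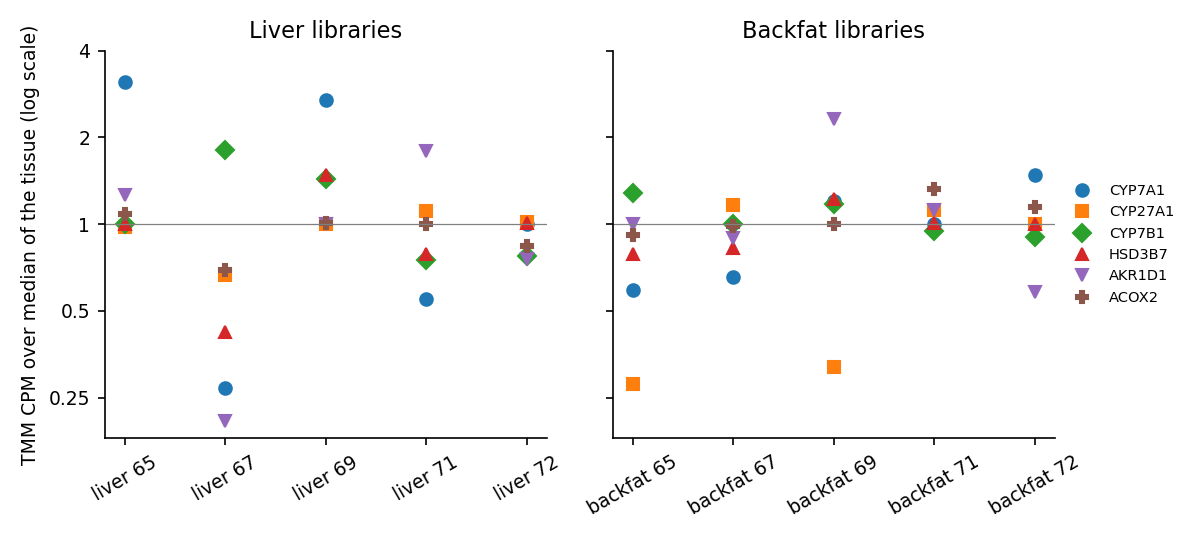
Level of each enzyme in each library over the median of its tissue (TMM CPM, log scale), for liver (left) and backfat (right). CYP7A1 in liver 65 and 69 lies above the other livers, liver 67 is low for 5 enzymes and high for CYP7B1, and CYP27A1 is low in backfat 65 and 69.

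For each enzyme the gene with the most similar profile was the one, of 12739 other tested genes with a symbol, at the smallest Euclidean distance in centred log2 CPM over the 10 libraries. These were GLI1 for CYP7A1 (distance 1.34, log2 fold change -3.88), FAM131C for CYP7B1 (0.95, -6.47), NSDHL for CYP27A1 (1.62, -2.99), A2M for AKR1D1 (1.47, -9.78), PDIA5 for HSD3B7 (0.50, -0.95) and FOXRED1 for ACOX2 (0.65, -3.27). The distances of HSD3B7 and ACOX2 were the smallest and that of CYP27A1 the largest of the 6. They describe likeness over these libraries, in which the difference between the tissues enters, and its part was not measured.

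Of the 14 further genes of the pathway in a fixed list, 13 had an identifier and 11 were tested. In this group 3 were called higher in liver and none higher in backfat, against 11.2% and 11.1% of all genes. The adjusted p was passed by 8, against 55.0% of all genes, and the median log2 fold change was -1.16. SLC27A2, a very long-chain acyl-CoA synthetase that activates the side chain, was at 0.350 to 1.28 CPM in backfat and 19.7 to 80.1 CPM in liver (log2 fold change -6.13, SE 0.46, adjusted p = 3.16e-07). SLC27A5, the bile acid-CoA ligase that precedes BAAT, was at 0.0305 to 0.198 CPM in backfat and 1.70 to 3.52 CPM in liver (log2 fold change -4.70, SE 0.48, adjusted p = 4.5e-06). Its backfat level was near the bottom of the range, so that fold rests on few backfat reads. FDX1, the ferredoxin that passes electrons to CYP27A1, was at 15.7 to 25.3 CPM and 52.3 to 172 CPM (log2 fold change -2.32, SE 0.30, adjusted p = 2.96e-05). FDXR, the reductase that feeds FDX1, had a log2 fold change of -1.05 (adjusted p = 0.000147) and POR, the electron donor of CYP7A1 and CYP7B1, one of -1.60 (adjusted p = 0.000376), and neither was called although their tissues did not overlap.

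CYP39A1, an oxysterol 7-alpha-hydroxylase, had a log2 fold change of -0.71 (adjusted p = 0.00594) and overlapped between the tissues. HSD17B4, the next peroxisomal enzyme after ACOX2, had -0.76 (adjusted p = 0.0591), and ABCD3, a peroxisomal importer, -1.51 (adjusted p = 0.00177). ACOT8 (-0.12) and ACOX3 (-0.34) did not pass the adjusted p, and their sign changed with library size alone as the scale. These 5 genes were named after their values were seen. CYP46A1 and CH25H, the cholesterol hydroxylases of brain and of immune cells, were at or below 0.101 CPM in every library and were not tested (CYP46A1, at 0.0719 CPM in backfat and 0.00542 CPM in liver, was called higher in backfat by DESeq2 and with no filter), and CYP8B1 had no identifier.

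Of 14 regulators of the pathway, 13 were tested. Among them 9 were called higher in liver and none higher in backfat, against 11.2% and 11.1% of all genes. Their median log2 fold change was -5.97. NR1H4 (FXR), the bile acid receptor, was at 64.3 to 89.6 CPM in liver and at 0 in all backfat libraries but backfat 69, where it was at 0.0336 CPM (adjusted p = 1.27e-09). NR0B2 (SHP), the repressor that NR1H4 induces, was at 9.53, 11.7, 21.2, 32.2 and 21.9 CPM in liver 65, 67, 69, 71 and 72 and at no more than 0.0336 CPM in backfat (adjusted p = 3.71e-08). HNF4A, an activator of CYP7A1, was at 277 to 544 CPM in liver and 0.154 to 1.28 CPM in backfat (log2 fold change -9.52, SE 0.57, adjusted p = 4.71e-08), again highest in backfat 69. The pregnane X receptor NR1I2 had a log2 fold change of -8.01 (adjusted p = 1.57e-09).

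Among the tested regulators not called, KLB was the only one with the higher level in backfat (MAFG, named after its values were seen, moved from -0.43 to above 0 with library size alone as the scale). KLB was at 121 to 209.7 CPM in backfat against 25.2 to 69.7 CPM in liver (log2 fold change 1.60, SE 0.27, adjusted p = 0.000269), and with library size alone it was called at 2.28. KLB is the co-receptor that FGFR4 needs to receive the gut hormone FGF19, and FGFR4 itself, named after its values were seen, was called higher in liver (log2 fold change -6.11, adjusted p = 3.06e-07). RXRA, the partner of NR1H4, had -1.33 (adjusted p = 8.62e-05) and NR1H3, the oxysterol receptor, -1.76 (adjusted p = 8.33e-05), and the tissues did not overlap for either. FGF19 was not tested, with 0 in all livers.

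**Figure D5:**
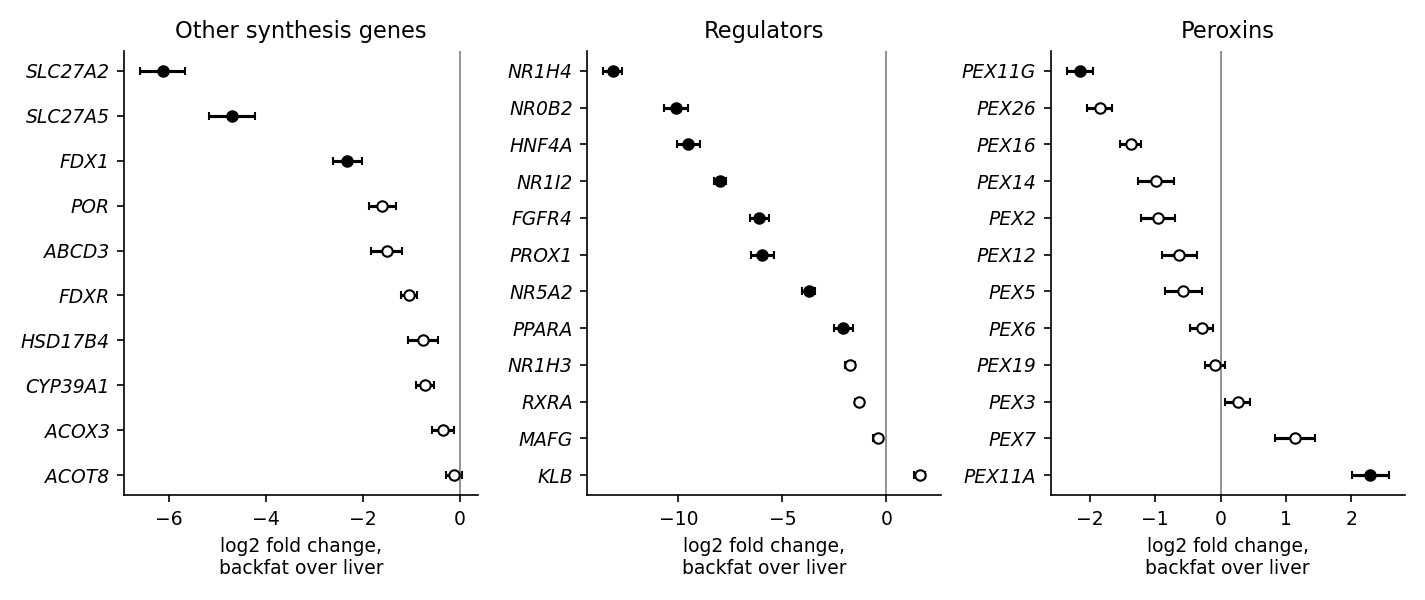
Log2 fold change, backfat over liver, with the standard error, for genes tested from 3 lists; filled points were called and open points were not. Of the regulators only KLB lies to the right of 0 (MAFG also does with library size alone as the scale), and the peroxins run from -2.15 to 2.29.

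Peroxins, which assemble the organelle that holds ACOX2, were called in both directions, 1 in each, of 13 tested and 16 listed. By the same rule 22.3% of all genes were called in either direction. The median log2 fold change of the peroxins was -0.63, and 8 passed the adjusted p, against 55.0% of all genes. PEX11A, which acts in the growth and division of peroxisomes, was at 69.7 to 128 CPM in backfat and 8.56 to 26.6 CPM in liver (log2 fold change 2.29, SE 0.28, adjusted p = 2.18e-05). PEX11G, of the same family, was at 4.48 to 5.64 CPM in backfat and 17.0 to 28.1 CPM in liver (log2 fold change -2.15, SE 0.20, adjusted p = 1.81e-06). PEX26 (-1.85, adjusted p = 5.12e-06) and PEX16 (-1.37, adjusted p = 1.6e-05) were not called but did not overlap between the tissues. Over all genes 42.6% did not overlap, against 5 of the 6 enzymes, 6 of 11 further pathway genes, 11 of 13 regulators and 6 of 13 peroxins.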

How the data were processed

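Backfat and liver RNA of 5 boars was sequenced as 10 libraries. Per the file headers and the methods, the authors mapped reads with HISAT2 to Sscrofa11.1 and counted read pairs over exons with featureCounts 2.0.1 (Ensembl release 99, no strand), and the deposited values are raw counts per gene. No column was left unused.

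Tissues were compared with edgeR 4.0.16 in R 4.3.3 (filterByExpr by tissue, TMM, glmQLFit, glmQLFTest), with Benjamini-Hochberg adjustment over 16275 genes. CPM are TMM-scaled, except in the marker sums, which used library size alone. FPKM are TMM-scaled CPM divided by the exon length of the table. Log2 SDs and distances used CPM + 0.1. Ratios within a library used counts + 0.5 and scipy 1.17.1. Of 4 ratios planned, 2 with SCP2 were not run. DESeq2 1.42.0 and limma 3.58.1 (voom) were alternatives. The code was tested on simulated data.

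Columns name the tissue and a number, and both tissues carry the same 5 numbers, read as the boars. The deviations from the tissue means of libraries with the same number correlated at 0.0478 to 0.237, and in 4 of 5 best with their own. Replicate numbers of the labels could not be matched to columns.

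The enzymes and lists were chosen with earlier results of these data known. The genes named were all 9 enzymes, up to 5 called genes in each direction of each list, up to 3 uncalled genes of a list without overlap, and the nearest profile of each enzyme. Symbols were matched through a reference table of gene names, and genes without an identifier, with some that the rule names, are not reported here. Counts and medians of the lists include all genes tested.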

Additional observations from a re-analysis of the deposited data

Results flagged for a closer look

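Of 46 groups of 5 libraries checked for a single library far from the others, 1 was found, where chance gives about 1 in 20. PEX11A was at 8.56 CPM in liver 67, the library with 44.5% mitochondrial reads, against 22.8 CPM in the nearest other liver.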

How the results depend on the processing

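Over 20 alternatives, each enzyme kept the direction of its difference, and the number called was 4 to 5. CYP7A1, CYP7B1, AKR1D1 and ACOX2 kept their call in all of them, with log2 fold changes of -4.72 to -3.80, -6.11 to -5.37, -11.18 to -9.82 and -3.25 to -2.50 outside the omission of single libraries. Against the main 3633, the genes called were 1852 with at least 10 counts in every library (981 higher in liver), 2413 by glmTreat (1287), 4903 by DESeq2 and 5247 with no filter. Scaling by library size alone gave 4214, of which 31.8% were higher in liver against 50.1%. Regulators called fell to 5 with at least 10 counts in every library, where 9 could be tested. Peroxins called were 1 with library size alone, 0 by glmTreat and 3 without backfat 69 and liver 67, an alternative chosen after seeing the data. Further pathway genes called were 2 with library size alone, by glmTreat and with at least 10 counts in every library. They were 4 by DESeq2 and with no filter, 1 of them higher in backfat. Without 1 library in turn, 3716 to 3964 genes, 5 enzymes, 3 further pathway genes, 8 to 9 regulators and 2 peroxins were called. The ratio of CYP7B1 to CYP27A1 then differed by -3.47 to -2.79 and that of HSD3B7 to CYP27A1 by 1.54 to 2.15.

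With the number of the boar as a replicate block, 3670 genes, 5 enzymes and 8 regulators were called. The paired ratios differed by -3.10 and 1.88, each with an exact sign-flip p = 0.0625, the smallest that 5 pairs allow. The block changed no call of an enzyme. By TPM, in which the scale differs between the tissues, HSD3B7 was at 62.8 in backfat and 72.1 in liver. BAAT had at most 3 reads in a library. The cause of these differences between settings was not tested.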

Other observations

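Some values of the boars lined up across the tissues, which was noticed after the values were seen and was not tested. Numbers 65 and 69 had the highest CYP7A1 in liver (127 and 110.3 CPM, against 11.1 to 40.9 CPM) and the lowest CYP27A1 in backfat (57.8 and 66.0 CPM, against 207 to 240.0 CPM). The mitochondrial share of reads was lowest in the livers of the same numbers (6.97% and 6.38%, against 11.9% to 44.5%). The macrophage marker sums, scaled by depth alone, of backfat 65 and 69 (701 and 541 CPM) lay within the range of the other backfat libraries (415 to 819 CPM). The skeletal muscle marker sums, on the same scale, were highest in backfat 65 and 69 (558 and 177 CPM, against 7.68 to 138 CPM). Their part in the CYP27A1 level was not tested.

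NR0B2 and CYP7A1 were not highest in the same livers. Liver 71 had the most NR0B2 (32.2 CPM) with 22.5 CPM of CYP7A1, and liver 65 the least NR0B2 (9.53 CPM) with the most CYP7A1 (127 CPM), but liver 67 was low for both (11.7 and 11.1 CPM). With 5 livers no correlation was computed. By number of the boar, the fold of liver over backfat ran from 5.50 to 69.8 for CYP7A1, from 2.91 to 17.8 for CYP27A1 and from 1.13 to 2.79 for HSD3B7.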
